A study of Mus musculus with 12 samples.

Results

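The transcripts of 9 genes of transforming growth factor beta (TGF-beta) and activin signalling were followed in interscapular brown fat of mice. They were the ligand genes Tgfb1, Tgfb2 and Tgfb3, the receptor genes Tgfbr1, Tgfbr2 and Tgfbr3, the inhibitor and target gene Smad7, the ligand activator gene Thbs1 and the activin subunit gene Inhbb. They were taken as a list of names, chosen with earlier results of these data known, out of 53379 gene IDs with deposited read counts, and all 9 passed the filter on low counts that left 15208 genes for testing. RNA-seq had been made from C57BL/6 mice of 12 weeks, killed at zeitgeber time 9. The 4 groups were mice labelled Cdk7 bKO (KO) after 6 h in the cold with food, wild type (WT) control littermates after the same cold exposure, KO mice at room temperature (RT) and WT littermates at RT. There were 3 pools a group, each of 500 ng of RNA, made of 250 ng from each of 2 mice. The labels call these pools biological triplicates. The driver of the deletion, the sex of the mice and the temperature of the cold are not stated in the sources at hand.

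TGF-beta ligands are secreted in a latent complex and signal, once released, through a pair of serine/threonine kinase receptors, a ligand-binding type II receptor (Tgfbr2) and a signal-transducing type I receptor (Tgfbr1), while the proteoglycan betaglycan (Tgfbr3) presents ligand to them. The activated type I receptor phosphorylates Smad2 and Smad3, which enter the nucleus with Smad4 and act on target genes, among them genes of the extracellular matrix and Smad7, an inhibitor that feeds back on the receptors. Activins, dimers of inhibin beta subunits such as the product of Inhbb, use related receptors and the same Smads, and in fat tissue these pathways are known for restraining adipocyte differentiation and for fibrosis.

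Promoter windows of the members were taken from RefSeq on build GRCm38.p6, each the 250 bases before the start of the gene, 5′ to 3′ on the strand of the gene. Windows were found for Tgfb1, Tgfb2, Tgfbr1, Tgfbr2 and Inhbb, 5 of the 9 members. The 4 shown here belong to Tgfbr2 and Inhbb, whose transcripts fell most in the cold in WT, and to the ligands Tgfb1 and Tgfb2, which are set apart by their core promoter letters. Capitals mark matches, on either strand, to the TATA box (TATAAA), the CCAAT box (CCAAT), the GC box (GGGCGG), the E-box (CACGTG), the cAMP response element (TGACGTCA), the AP-1 site (TGACTCA) and the short SMAD-binding element (CAGAC), and no marked matches shared bases.
Tgfbr2, chr9:116175364-116175613, minus strand: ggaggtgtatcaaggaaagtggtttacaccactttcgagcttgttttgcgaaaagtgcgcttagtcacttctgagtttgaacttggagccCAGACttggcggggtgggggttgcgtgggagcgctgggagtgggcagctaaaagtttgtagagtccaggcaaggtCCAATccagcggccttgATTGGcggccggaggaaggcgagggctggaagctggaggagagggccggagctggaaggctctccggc
Inhbb, chr1:119422249-119422498, minus strand: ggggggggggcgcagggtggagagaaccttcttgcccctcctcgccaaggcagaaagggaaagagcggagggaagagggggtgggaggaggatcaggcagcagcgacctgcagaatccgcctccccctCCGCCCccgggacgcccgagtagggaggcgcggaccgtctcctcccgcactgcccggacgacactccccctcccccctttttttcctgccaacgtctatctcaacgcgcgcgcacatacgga
Tgfb1, chr7:25686752-25687001, plus strand: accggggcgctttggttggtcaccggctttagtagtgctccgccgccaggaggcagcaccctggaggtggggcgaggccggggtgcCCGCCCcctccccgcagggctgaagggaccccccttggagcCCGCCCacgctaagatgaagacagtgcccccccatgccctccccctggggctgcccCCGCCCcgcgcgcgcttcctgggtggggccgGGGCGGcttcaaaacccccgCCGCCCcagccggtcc
Tgfb2, chr1:186705990-186706239, minus strand: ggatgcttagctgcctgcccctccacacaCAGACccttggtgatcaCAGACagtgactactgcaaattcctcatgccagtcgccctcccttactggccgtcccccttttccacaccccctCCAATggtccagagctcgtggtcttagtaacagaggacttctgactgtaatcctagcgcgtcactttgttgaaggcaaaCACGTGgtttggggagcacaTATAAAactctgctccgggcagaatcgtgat

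The Tgfbr2 window held 2 CCAAT boxes, 85 and 68 bases before the start, and 1 SMAD-binding element. The Inhbb window held 1 GC box. The Tgfb1 window held 5 GC boxes, the nearest 16 bases before the start, and none of the other motifs. The Tgfb2 window held a TATA box 31 bases before the start, an E-box, a CCAAT box and 2 SMAD-binding elements. Over the 32851 promoter windows of the same length in the RefSeq table, 12.4% held a TATA box, 33.8% a CCAAT box, 32.7% a GC box, 6.02% an E-box, 1.55% a cAMP response element, 4.46% an AP-1 site and 42.2% a SMAD-binding element. The matches describe letters only.

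The deposited values were counts of reads per gene, and gene counts summed to between 27609717 and 36792555 per library. Levels are given as CPM, counts scaled to a common library size with TMM factors, and values after ± are SD for levels and standard errors (SE) for log2 fold changes, each with 3 pools a group. Cdk7, the deleted kinase gene, was measured first: it averaged 5.21 ± 0.309 CPM in KO against 16.6 ± 1.20 CPM in WT in the cold, and 5.09 ± 0.712 CPM in KO against 15.9 ± 0.720 CPM in WT at RT. All 10 markers of brown adipocytes had counts in every library, and Ucp1, the uncoupling protein of brown fat, averaged 4071 CPM in KO against 16089 CPM in WT in the cold. Skeletal muscle markers summed to 1338 CPM in KO RT replicate 6 and 920 CPM in WT RT replicate 2, against 5.05 to 357 CPM in the other 10 libraries. Results that lean on those libraries are given without them as well. Since whole tissue was sequenced, fewer cells of a type and less RNA per cell cannot be told apart.

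Between KO and WT, 5 members passed the test at RT, where 40.4% of all tested genes did, and 3 passed in the cold, where 53.7% did. At RT, Tgfb1, Tgfb3 and Smad7 rose in KO, against a share of 19.3% of all genes that rose, and Tgfbr2 and Tgfbr3 fell, against 21.0% that fell. In the cold, Tgfb1, Tgfb3 and Tgfbr2 rose in KO, against 25.9% of all genes. With cold in WT, 4 members passed, against 46.3% of all genes: Tgfb3 and Smad7 rose, against 23.0%, and Tgfbr2 and Inhbb fell, against 23.2%. With cold in KO, 2 passed, against 14.8%: Smad7 rose, against 7.29%, and Tgfb1 fell, against 7.56%. These counts lie on either side of the shares over all genes and show nothing particular to the 9 genes as a group. With libraries scaled by their totals alone, the members that passed all rose in KO, 5 at RT and 7 in the cold, and with cold in WT 1 rose and 4 fell. Of all 15208 genes, 4739 rose in KO at RT and 7881 in the cold under that scaling. The cold response of WT then passed for 6639 genes, and 1826 of them rose. Medians over all genes moved to 0.218, 0.449 and -0.227 in these comparisons. The directions of the members thus went with a shift of all genes. Pools of the groups compared did not overlap for 5 members in KO against WT at RT (48.8% of all genes), for 5 in the cold (62.7%), for 6 with cold in WT (55.4%) and for 2 with cold in KO (32.8%). Over the members, the median log2 fold change was 0.38 for KO over WT at RT, against 0.003 for all genes, and 0.45 in the cold, against 0.012.

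**Figure D1:**
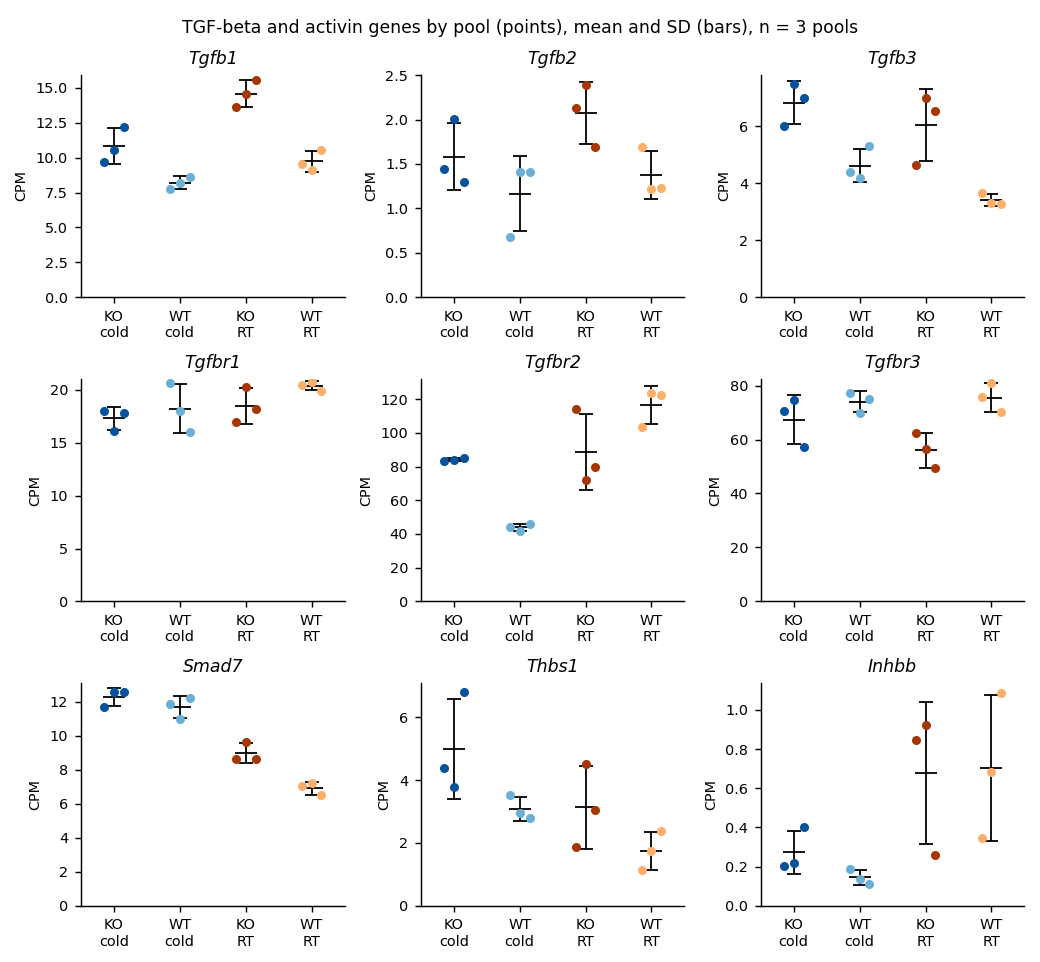
Level in CPM (vertical axes, from 0) of each of the 9 genes in each pool (points), with the group mean and SD (bars, n = 3 pools), for KO cold, WT cold, KO RT and WT RT from left to right. Tgfbr2 sits at 41.8 to 46.1 CPM in the WT cold pools and at 83.4 to 85.0 CPM in the KO cold pools, while Tgfbr1 lies between 16.1 and 20.8 CPM in all 12 pools.

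The member whose regulation differed most between the genotypes was Tgfbr2, the gene of the type II receptor that binds TGF-beta (chr9:116084293-116175360, minus strand, GRCm38). It had 83.4, 83.6 and 85.0 CPM in the KO cold pools, against 44.1, 41.8 and 46.1 CPM in the WT cold pools. At RT the KO pools had 114, 72.1 and 79.8 CPM, against 104, 123 and 123 CPM in the WT pools. The WT cold pools were thus the lowest of all 12 and overlapped no other group, the KO cold pools lay within a narrow band, and at RT 1 KO pool lay inside the WT range.

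In WT, Tgfbr2 fell 2.65-fold with cold, by 1.41 ± 0.14 on the log2 scale (edgeR quasi-likelihood test, adjusted p = 1.1e-06). In KO the log2 change with cold was -0.08 ± 0.13 (adjusted p = 0.74). The difference between both cold responses was itself past the threshold, at 1.33 ± 0.19 (adjusted p = 0.00028), and Tgfbr2 was the 1 member of 9 for which this test passed, against 23.5% of all genes. Tgfbr3 passed it as well with limma voom (0.46, adjusted p = 0.013) and without KO cold replicate 3 (0.40, adjusted p = 0.048). In the cold Tgfbr2 was therefore 1.91-fold higher in KO than in WT (log2 0.93 ± 0.13, adjusted p = 4.2e-05). The fall in WT, the difference of the responses (1.20 to 1.56) and the higher level in KO in the cold held under every alternative setting tried. While Tgfbr2 fell with cold in WT, fibroblast markers summed to 495 to 647 CPM in WT cold and 408 to 472 CPM in WT RT, endothelial markers to 752 to 778 CPM in WT cold and 609 to 733 CPM in WT RT, and macrophage markers to 102 to 105 CPM in WT cold and 69.2 to 95.3 CPM in WT RT. Platelet markers summed to 3.75 to 4.84 CPM in WT cold and 4.35 to 5.58 CPM in WT RT, T and B cell markers to 6.17 to 8.90 CPM in WT cold and 6.67 to 9.12 CPM in WT RT, and skeletal muscle markers to 7.12 to 114 CPM in WT cold and 20.9 to 920 CPM in WT RT. Brown adipocyte markers summed to 23354 to 26495 CPM in WT cold and 11425 to 14491 CPM in WT RT, with 4 of 10 higher and 3 lower in the cold. Smooth muscle and pericyte markers summed to 717 to 863 CPM in WT cold and 661 to 719 CPM in WT RT. The part of these markers in the fall of Tgfbr2 was not tested.

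At RT the direction was the other way: Tgfbr2 averaged 88.7 ± 22.5 CPM in KO against 117 ± 11.2 CPM in WT, a log2 fold change of -0.39 ± 0.13 (adjusted p = 0.026). The call of this smaller difference depended on the scaling and on single libraries. With library totals alone the difference was -0.19 (adjusted p = 0.34), where the median of all genes moved to 0.218. Without KO RT replicate 4, the pool inside the WT range, it was -0.62, and without KO RT replicate 5 it was -0.27 (adjusted p = 0.11). The call was also lost without KO RT replicate 6 (-0.32), without WT RT replicate 2 (-0.35) or replicate 3 (-0.36), and, at -0.28 with adjusted p = 0.23, without both libraries rich in skeletal muscle transcripts.

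For Tgfbr1 and Tgfbr3 no cold response passed edgeR's test in either genotype with TMM factors. Tgfbr1, the type I receptor (chr4:47353222-47414931, plus strand), averaged 17.3 ± 1.07 CPM in KO against 18.2 ± 2.33 CPM in WT in the cold, and 18.5 ± 1.69 CPM in KO against 20.4 ± 0.424 CPM in WT at RT. No pairwise comparison of Tgfbr1 passed, with log2 fold changes between -0.16 and -0.08 and adjusted p of at least 0.21. With library totals alone it passed for KO over WT in the cold (0.36, adjusted p = 0.023) and for cold in WT (-0.35, adjusted p = 0.034). The medians of all genes under that scaling were 0.449 and -0.227 in these comparisons. Within these pools the ratio of Tgfbr2 to Tgfbr1 levels per length of transcript was 3.69, 4.15 and 3.81 in KO cold, against 1.70, 1.86 and 2.29 in WT cold. At RT the ratio was 5.38, 2.83 and 3.49 in KO, against 4.04, 4.75 and 4.91 in WT.

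The WT cold pools had the lowest ratio of these receptor transcripts and did not overlap with any other group. An exact two-sided permutation test gave p = 0.1 both for KO cold against WT cold and for WT cold against WT RT, which is the smallest p that 3 pools against 3 allow. For KO cold against KO RT the same exact permutation test gave p = 1, and for KO RT against WT RT it gave p = 0.5.

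Tgfbr3, the gene of betaglycan (chr5:107106570-107289629, minus strand), had 70.5, 74.5 and 57.1 CPM in the KO cold pools, against 77.3, 69.97 and 74.97 CPM in the WT cold pools. In the RT pools it stood at 62.3, 56.4 and 49.4 CPM in KO, against 75.8, 80.8 and 70.03 CPM in WT. All KO pools at RT lay below all WT pools at RT, and in the cold the genotypes overlapped. Tgfbr3 fell in KO at RT by 0.43 ± 0.11 on the log2 scale (adjusted p = 0.0038), and the log2 fold change in the cold was -0.14 (adjusted p = 0.28), or 0.31 (adjusted p = 0.057) with library totals alone. The fall at RT was -0.30 (adjusted p = 0.094) without the libraries rich in skeletal muscle transcripts. It was -0.22 (adjusted p = 0.21) when libraries were scaled by their totals alone. That scaling moved the median of all genes to 0.218 at RT and 0.449 in the cold. The call at RT thus depended on the scaling and on those libraries.

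**Figure D2:**
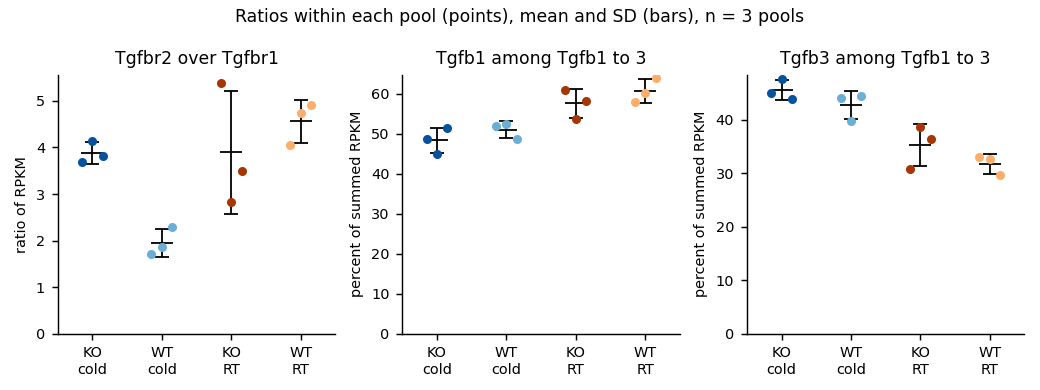
Ratio of Tgfbr2 to Tgfbr1 RPKM (left), and percent of the summed RPKM of Tgfb1, Tgfb2 and Tgfb3 that was Tgfb1 (middle) or Tgfb3 (right), in each pool (points) with mean and SD (bars, n = 3 pools). The receptor ratio averaged 3.88 in KO cold and 1.95 in WT cold, and the share of Tgfb3 averaged 45.4 and 42.7% in KO and WT in the cold, against 35.2 and 31.7% at RT.

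Of the ligand genes, Tgfb1 and Tgfb3 were higher in KO at both temperatures. Tgfb1 (chr7:25687002-25705077, plus strand), the ligand made by many immune and stromal cells, had 9.71, 10.6 and 12.2 CPM in the KO cold pools, against 7.72, 8.21 and 8.64 CPM in the WT cold pools. The KO pools at RT had 13.6, 14.6 and 15.6 CPM, against 9.55, 9.10 and 10.5 CPM in the WT pools at RT. The KO pools lay above the WT pools at both temperatures, without overlap.

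Tgfb1 rose in KO by 0.40 ± 0.11 on the log2 scale in the cold (1.32-fold, adjusted p = 0.0065) and by 0.58 ± 0.11 at RT (1.498-fold, adjusted p = 0.00053). Both calls held in all alternatives, and with library totals alone the cold value was 0.84, against a median of 0.449 over all genes. With cold in KO, Tgfb1 fell by 0.43 ± 0.11 (adjusted p = 0.014), and in WT the log2 change was -0.25 (adjusted p = 0.083), a difference between cold responses of -0.18 that did not pass (adjusted p = 0.43). The fall in KO was no longer past the threshold without KO RT replicate 6 (-0.38), KO cold replicate 1 (-0.36) or KO cold replicate 2 (-0.41).

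Tgfb3 (chr12:86056745-86079041, minus strand), a ligand of mesenchymal tissues, had 5.99, 7.48 and 6.997 CPM in the KO cold pools, against 4.39, 4.17 and 5.29 CPM in the WT cold pools. Its RT levels were 4.62, 6.99 and 6.52 CPM in the KO pools, against 3.64, 3.30 and 3.27 CPM in the WT pools. Again no KO pool overlapped the WT pools of its temperature. Tgfb3 rose in KO by 0.56 ± 0.16 in the cold (adjusted p = 0.0083) and by 0.83 ± 0.17 at RT (1.78-fold, adjusted p = 0.00087), in all alternatives.

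With cold in WT, Tgfb3 rose by 0.44 ± 0.17 (adjusted p = 0.04), a call that held in 9 of 16 alternatives. The rise was smallest with library totals alone (0.25, adjusted p = 0.27), where the median of all genes was -0.227. The call was also lost, among others, without WT cold replicate 1 (0.48) or replicate 3 (0.33) and without WT RT replicate 2 (0.42) or replicate 3 (0.41). In KO the log2 change with cold was 0.18 (adjusted p = 0.5). Tgfb3 overlaps Ttll5 on the opposite strand, with no exon bases in common.

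Tgfb2 (chr1:186622792-186705989, minus strand), the ligand with the TATA box in the window shown above, was the lowest of the ligand genes. It had 1.44, 2.01 and 1.29 CPM in the KO cold pools, against 0.675, 1.41 and 1.42 CPM in the WT cold pools. At RT the KO pools had 2.13, 2.38 and 1.70 CPM, against 1.69, 1.22 and 1.23 CPM in the WT pools. With 18 to 78 counts per library no comparison passed: the log2 fold change of KO over WT was 0.45 ± 0.28 in the cold (adjusted p = 0.19) and 0.60 ± 0.27 at RT (adjusted p = 0.084).

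Per length of transcript, Tgfb1 made up 48.4 ± 3.18% of the 3 ligand transcripts in KO and 51.0 ± 2.07% in WT in the cold, against 57.6 ± 3.57% in KO and 60.8 ± 2.95% in WT at RT. Tgfb3 took 45.4 ± 1.87% in KO and 42.7 ± 2.59% in WT in the cold, against 35.2 ± 3.98% in KO and 31.7 ± 1.86% in WT at RT. In both genotypes the cold and RT pools did not overlap for either share, and the exact two-sided permutation test gave p = 0.1, the smallest possible. The mix of ligand transcripts thus differed by temperature in both genotypes, with the share of Tgfb3 higher in the cold. Between KO and WT at the same temperature the shares overlapped (exact permutation p of 0.3 and 0.5 for Tgfb1 in the cold and at RT, and 0.3 at both temperatures for Tgfb3).

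Smad7, the inhibitory Smad that TGF-beta itself induces (chromosome 18, plus strand), was higher in the cold in both genotypes. It had 11.7, 12.6 and 12.6 CPM in the KO cold pools, against 11.9, 10.98 and 12.2 CPM in the WT cold pools. In the RT pools it stood at 8.65, 9.63 and 8.61 CPM in KO, against 7.02, 7.23 and 6.48 CPM in WT. The cold pools of both genotypes overlapped and lay above all RT pools, and at RT the KO pools lay above the WT pools.

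With cold, Smad7 rose by 0.45 ± 0.10 on the log2 scale in KO (1.37-fold, adjusted p = 0.0062) and by 0.76 ± 0.10 in WT (1.69-fold, adjusted p = 1.6e-05). The difference between these responses was -0.31 ± 0.14 and did not pass (adjusted p = 0.13). At RT Smad7 rose in KO over WT by 0.38 ± 0.10 (adjusted p = 0.0081), while in the cold the log2 fold change was 0.07 (adjusted p = 0.59). With libraries scaled by totals alone the value in the cold was 0.50 (adjusted p = 0.0025), where the median of all genes was 0.449. The other 3 calls held in all alternatives.

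Thbs1, the gene of thrombospondin, a matrix protein that can release TGF-beta from its latent complex (chr2:118111876-118127133, plus strand), varied widely between pools. It had 4.37, 3.80 and 6.81 CPM in the KO cold pools, against 3.52, 2.95 and 2.79 CPM in the WT cold pools. The KO pools at RT had 1.86, 4.51 and 3.03 CPM, against 1.15, 1.74 and 2.37 CPM in the WT pools at RT. The KO pools lay above the WT pools in the cold, but at RT the genotypes overlapped.

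The log2 fold change of Thbs1 for KO over WT was 0.69 ± 0.32 in the cold (adjusted p = 0.083) and 0.81 ± 0.33 at RT (adjusted p = 0.066), and for cold over RT it was 0.67 ± 0.31 in KO (adjusted p = 0.17) and 0.80 ± 0.34 in WT (adjusted p = 0.067). None of these passed the test of edgeR. Thbs1 did pass in 5 of 16 alternatives for KO over WT in the cold, in 5 of 15 at RT, in 5 of 16 for cold in WT and in 2 of 15 for cold in KO. Among them were DESeq2 (adjusted p = 0.048 for KO over WT in the cold, 0.027 at RT and 0.027 for cold in WT) and, for KO over WT, edgeR with library totals alone (1.11 in the cold, adjusted p = 0.009, and 1.02 at RT, adjusted p = 0.027). The medians of all genes with library totals alone were 0.449 in the cold and 0.218 at RT.

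Inhbb, the gene of the inhibin beta B chain that forms activin B (chr1:119415465-119422248, minus strand), was near the limit of detection, with 3 to 40 counts per library. It had 8, 8 and 13 counts in the KO cold pools, against 5, 3 and 3 counts in the WT cold pools, and 31, 29 and 8 counts in the KO RT pools, against 9, 24 and 40 counts in the WT RT pools. In CPM this came to 0.273 ± 0.111 in KO and 0.145 ± 0.0386 in WT in the cold, and 0.677 ± 0.362 in KO and 0.706 ± 0.373 in WT at RT. All WT cold pools lay below all WT RT pools, whereas 1 KO RT pool lay inside the range of the KO cold pools.

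Inhbb fell with cold in WT by 2.28 ± 0.57 on the log2 scale (adjusted p = 0.0034, between -2.58 and -1.83 over the 14 alternatives that tested it). In KO the log2 change was -1.33 ± 0.48 (adjusted p = 0.072), or -1.70 (adjusted p = 0.024) without KO RT replicate 6, the library richest in skeletal muscle transcripts. The difference between both responses did not pass (0.95 ± 0.77, adjusted p = 0.4), so a difference of the genotypes in this fall was not detectable at this depth.

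**Figure D3:**
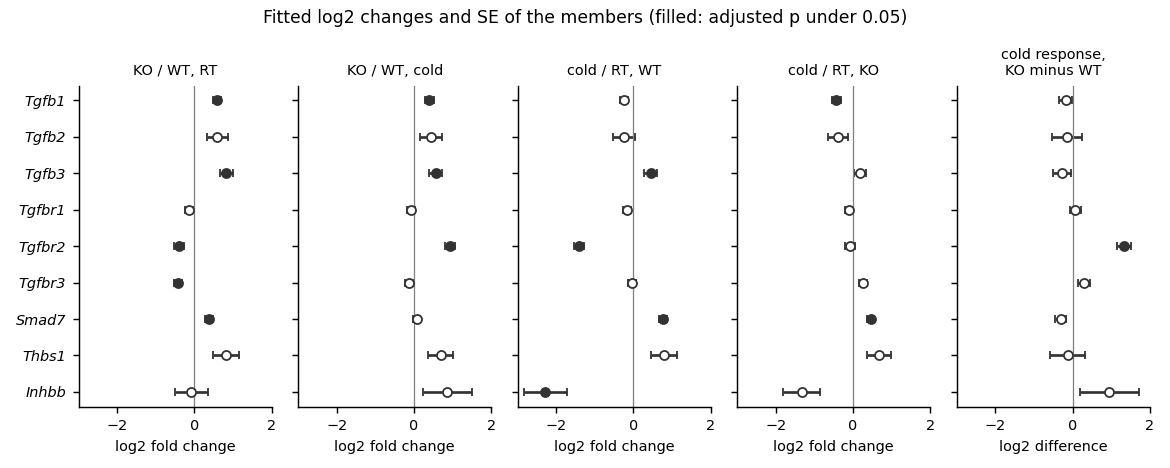
Fitted log2 fold changes with SE (horizontal axes) of the 9 genes in each comparison of a pair of groups (4 left panels) and the KO minus WT difference of the cold responses (right panel); filled points have an adjusted p under 0.05 by edgeR's quasi-likelihood test. The point of Tgfbr2 lies at -1.41 for cold in WT, at -0.08 for cold in KO and at 1.33 for the difference.

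Per length of transcript, Tgfbr2 and Tgfbr3 were the most abundant members in every group, and Inhbb the least. In KO cold, Tgfbr3 (10.3 RPKM) and Tgfbr2 (10.3 RPKM) overlapped in their ranges, as did Smad7 (2.71 RPKM) with Tgfbr1 (2.65 RPKM) and Tgfb1 (2.15 RPKM) with Tgfb3 (2.02 RPKM). In WT cold the order was Tgfbr3 (11.3 RPKM) above Tgfbr2 (5.37 RPKM) without overlap. At RT the order of these receptor genes was reversed, with Tgfbr2 at 10.8 RPKM and Tgfbr3 at 8.57 RPKM in KO, overlapping in their ranges, and Tgfbr2 at 14.2 RPKM and Tgfbr3 at 11.5 RPKM in WT, not overlapping. In all groups Tgfbr1 had a lower level than the other receptor genes, and Thbs1 (0.288 to 0.822 RPKM) and Tgfb2 (0.201 to 0.358 RPKM) lay below Tgfb1 and Tgfb3.

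Over the 12 libraries, Tgfb1 and Tgfbr3 varied inversely, with Pearson's r = -0.881 of log2 CPM, and r = -0.837 after the group means were taken out. The points share their library and its scaling factor, and this is a description of these pools. Among the genes whose pattern was most like Tgfbr2 over the 12 libraries were Dhodh (r = 0.978) and St3gal4 (r = 0.973). For Smad7 the most alike were Pvr (0.979), Alg11 (0.977) and Ppp2ca (0.974), for Tgfb1 they were E4f1 (0.963), Rarg (0.958) and Shank3 (0.952), and for Tgfb3 they were Nid1 (0.974), Ube2z (0.972) and Prag1 (0.954).

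The other genes of the pathway were taken from lists by function, 85 genes of which 73 passed the filter. Between KO and WT in the cold 31 of the 73 rose and 15 fell, with a median log2 fold change of 0.36, and at RT 28 rose and 10 fell, with a median of 0.38. With cold in WT 18 rose and 11 fell, against 23.0% and 23.2% of all genes. In KO 4 rose and 7 fell with cold, against 7.29% and 7.56% of all genes. With library totals alone, 45 rose and 3 fell in KO in the cold, 36 rose and 2 fell at RT, and 8 rose and 18 fell with cold in WT. Of all 15208 genes, 7881 rose in KO in the cold under that scaling and 4739 at RT. For cold in WT 6639 genes passed, of which 1826 rose. Most of the falls in KO and the balance of the cold responses in WT thus rested on the scaling, which shifted all genes. Among all genes, 25.9% rose and 27.8% fell in KO in the cold, and 19.3% rose and 21.0% fell at RT. The cold responses of 10 pathway genes differed between the genotypes, 6 with a positive and 4 with a negative difference of KO minus WT, where over all genes 10.6% were positive and 12.9% negative. Genes below were named by the size of their p in these data, so their calls are not a sample of the lists.

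Among the other receptors, Acvr1c, which encodes the activin receptor ALK7 that adipocytes express, was the most reduced in KO. It had 39.1, 39.7 and 34.6 CPM in the KO cold pools, against 93.4, 89.8 and 89.1 CPM in the WT cold pools. Its RT levels were 33.7, 42.3 and 34.4 CPM in the KO pools, against 91.0, 87.7 and 80.8 CPM in the WT pools. The groups of KO pools overlapped each other and lay far below the WT pools at both temperatures.

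Acvr1c fell in KO by 1.26 ± 0.09 in the cold (adjusted p = 4.3e-08) and by 1.23 ± 0.09 at RT (adjusted p = 9.1e-08), with no response to cold that passed in either genotype. Brown adipocyte markers summed to 8833 to 9811 CPM in KO cold and 23354 to 26495 CPM in WT cold, and to 8403 to 9298 CPM in KO RT and 11425 to 14491 CPM in WT RT, with 5 of 10 lower in KO at each temperature and 1 higher at RT, and their part in the low Acvr1c was not tested. Acvr1b, the type I receptor ALK4 of activins, had 7.79, 7.48 and 5.61 CPM in KO cold, against 5.25, 4.99 and 5.40 CPM in WT cold, and 6.70, 6.20 and 5.44 CPM in KO RT, against 9.39, 9.44 and 8.50 CPM in WT RT. As with Tgfbr2, its fall with cold passed in WT (-0.80 ± 0.14, adjusted p = 0.00016) and not in KO (0.19, adjusted p = 0.39), and the cold responses differed by 0.99 ± 0.19 (adjusted p = 0.0018).

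The receptors of endothelial cells were higher in KO. Acvrl1, the endothelial type I receptor ALK1, averaged 34.1 ± 1.33 CPM in KO and 22.1 ± 0.943 CPM in WT in the cold, and 31.3 ± 1.34 CPM in KO and 19.2 ± 1.19 CPM in WT at RT. It rose in KO by 0.62 ± 0.08 in the cold and by 0.71 ± 0.08 at RT (adjusted p = 9.2e-06 and 5.2e-06). Eng, the endothelial coreceptor endoglin, averaged 225 ± 22.5 CPM in KO and 182 ± 7.62 CPM in WT in the cold, and 190 ± 14.3 CPM in KO and 105 ± 15.1 CPM in WT at RT, but it overlaps Fpgs on the opposite strand. Eng rose in KO by 0.85 ± 0.11 at RT (adjusted p = 1.3e-05). Its rise in the cold was smaller, at 0.30 ± 0.11 (adjusted p = 0.023), and passed in only 12 of 16 alternatives. The endothelial markers summed to 850 to 984 CPM in KO cold and 752 to 778 CPM in WT cold, and to 848 to 863 CPM in KO RT and 609 to 733 CPM in WT RT, with 7 of 10 higher in KO at each temperature and 1 lower in the cold, and their part in these rises was not tested.

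**Figure D4:**
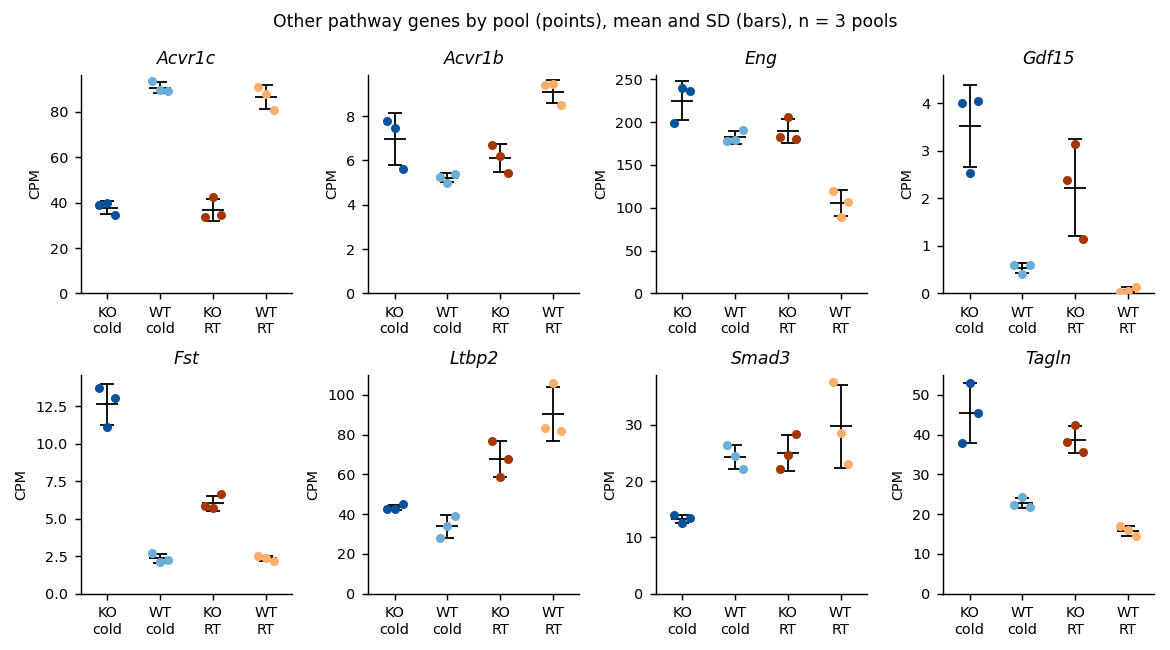
Level in CPM (vertical axes, from 0) of 8 other genes of the pathway in each pool (points), with mean and SD (bars, n = 3 pools), for KO cold, WT cold, KO RT and WT RT from left to right. Fst averages 12.6 CPM in KO cold against 2.36 CPM in WT cold, and Acvr1c 37.8 against 90.8 CPM.

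All 5 extracellular inhibitors rose in KO in the cold, against 25.9% of all genes, and 2 of them at RT, against 19.3%. Their median log2 fold change was 1.04 in the cold and 0.48 at RT. Dcn, among them, is also in the list of fibroblast markers. Fst, the gene of the activin-binding protein follistatin, had 13.7, 11.1 and 13.1 CPM in the KO cold pools, against 2.70, 2.13 and 2.23 CPM in the WT cold pools. At RT the KO pools had 5.83, 5.69 and 6.62 CPM, against 2.53, 2.36 and 2.18 CPM in the WT pools. The cold pools of KO stood above all other groups, the RT pools of KO came next, and the WT pools of both temperatures overlapped.

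Fst rose in KO by 2.42 ± 0.15 in the cold (adjusted p = 3.9e-09) and by 1.36 ± 0.14 at RT (adjusted p = 2.4e-06). With cold it rose in KO by 1.06 ± 0.13 (adjusted p = 5.4e-05), while in WT the log2 change was 0.01 ± 0.15 (adjusted p = 0.98), and the difference of 1.06 ± 0.20 passed (adjusted p = 0.0015). Bambi, a receptor decoy, averaged 1.89 ± 0.113 CPM in KO and 0.693 ± 0.117 CPM in WT in the cold (log2 1.45 ± 0.24, adjusted p = 9.6e-05). Htra1, a secreted protease that binds TGF-beta ligands, averaged 22.0 ± 0.853 CPM in KO and 14.0 ± 1.41 CPM in WT in the cold (log2 0.65 ± 0.09, adjusted p = 1.7e-05), and it overlaps an intron of Fgfr2 on the opposite strand. Fstl3, which encodes a follistatin-like binding protein, rose in KO by 1.04 ± 0.37 in the cold (adjusted p = 0.024) and by 1.45 ± 0.39 at RT (adjusted p = 0.0066). It reached at most 1.67 CPM in any pool, both calls were lost in some alternatives, and it overlaps Prss57 on the opposite strand.

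Of the 11 tested genes of ligand latency and activation, 7 rose and 4 fell in KO in the cold, against 25.9% and 27.8% of all genes. At RT 5 rose and 3 fell, against 19.3% and 21.0%. Scaled by library totals alone, the genes of this list that passed all rose in KO, 7 in the cold and 6 at RT. Of all 15208 genes, 7881 and 4739 then rose. Ltbp2, a latent TGF-beta binding protein of the matrix, fell with cold in WT by 1.42 ± 0.13 (adjusted p = 6.9e-07), to 33.8 ± 5.68 CPM in WT cold against 90.4 ± 13.6 CPM in WT RT, and in KO by 0.64 ± 0.13 (adjusted p = 0.0039), to 43.3 ± 1.40 CPM in KO cold against 67.6 ± 9.16 CPM in KO RT. Lrrc32, the gene of GARP, which tethers latent TGF-beta to cell surfaces, moved in opposite directions: with cold it fell in KO by 0.54 ± 0.12 (adjusted p = 0.0049) and rose in WT by 0.57 ± 0.12 (adjusted p = 0.00082). Nrros, which tethers latent ligand in macrophages and microglia, rose in KO by 0.77 ± 0.14 in the cold (adjusted p = 0.00021) and by 0.57 ± 0.14 at RT (adjusted p = 0.0034), or 0.49 (adjusted p = 0.059) at RT without the libraries rich in skeletal muscle transcripts. Itgav, the integrin alpha V chain, fell in KO by 0.58 ± 0.11 at RT (adjusted p = 0.0007), and its call in the cold (-0.28, adjusted p = 0.048) was lost in most alternatives.

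The macrophage markers moved with genotype. Their summed level was 269 to 370 CPM in KO cold against 102 to 105 CPM in WT cold, and 232 to 305 CPM in KO RT against 69.2 to 95.3 CPM in WT RT, and all 10 of 10 rose in KO at both temperatures. Fibroblast markers summed to 619 to 808 CPM in KO cold and 495 to 647 CPM in WT cold, and to 587 to 663 CPM in KO RT and 408 to 472 CPM in WT RT, with 6 of 10 higher in KO at each temperature. Platelet markers were near 0, with 2 of the 5 that could be tested higher in KO at each temperature and sums of 7.68 to 8.19 CPM in KO cold and 3.75 to 4.84 CPM in WT cold, and 7.34 to 8.10 CPM in KO RT and 4.35 to 5.58 CPM in WT RT, and Gp9, Gp6, Gp1ba or Gp1bb was at 0 in some pools. T and B cell markers summed to 16.1 to 20.5 CPM in KO cold and 6.17 to 8.90 CPM in WT cold, and to 14.0 to 18.4 CPM in KO RT and 6.67 to 9.12 CPM in WT RT, and of the 9 tested 5 were higher in KO in the cold and 3 at RT. The part of these markers in the higher Tgfb1, Tgfb3 and Nrros of KO was not tested.

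Of the 17 TGF-beta target genes, 8 rose in KO in the cold, against 25.9% of all genes, with a median log2 fold change of 0.28. At RT 12 rose and 1 fell, against 19.3% and 21.0% of all genes, with a median of 0.77. Tagln, a smooth muscle actin-binding protein, averaged 45.4 ± 7.66 CPM in KO and 22.8 ± 1.29 CPM in WT in the cold, and 38.7 ± 3.35 CPM in KO and 15.8 ± 1.24 CPM in WT at RT, and overlaps Pcsk7 on the opposite strand. Postn, the matrix protein periostin, averaged 265 ± 1.16 CPM in KO and 150 ± 5.58 CPM in WT in the cold (log2 0.82 ± 0.12, adjusted p = 3e-05), and 238 ± 51.9 CPM in KO and 136 ± 9.05 CPM in WT at RT (log2 0.81 ± 0.12, adjusted p = 6.2e-05).

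Fn1, fibronectin, rose in KO by 0.55 ± 0.11 in the cold and by 0.70 ± 0.11 at RT (adjusted p = 0.00066 and 0.00013). Lox, the collagen crosslinking enzyme, was the exception: it fell in KO at RT by 0.78 ± 0.12 (adjusted p = 0.00012), to 13.4 ± 1.13 CPM against 23.0 ± 4.34 CPM in WT. With cold in WT 8 of the 17 rose and 1 fell, against 23.0% and 23.2% of all genes. In KO none passed edgeR's test for cold, against 14.8% of all genes. At an unadjusted p of 0.05 in that test 5 rose, but the share of all genes at that p was not counted. For cold in KO, DESeq2 called 0 of the 17 and limma voom called 5 higher and 1 lower. Of all genes, DESeq2 called 2506 of 13732 for cold in KO, 1230 of them higher. Limma voom called 4155 of 15208, of which 1960 were higher. The difference between both cold responses passed edgeR's test for Lox alone, against 23.5% of all genes. Without the libraries rich in skeletal muscle transcripts, 7 targets rose in KO at RT and 5 with cold in WT. Of the 15386 genes tested in that setting, 1620 rose in KO at RT and 2848 with cold in WT. Under scaling by library totals alone, 12 targets rose in KO in the cold, 15 rose and 1 fell in KO at RT, and 4 rose and 1 fell with cold in WT. Of all 15208 genes, that scaling called 7881, 4739 and 1826 higher in these comparisons. Smooth muscle and pericyte markers summed to 774 to 884 CPM in KO cold and 717 to 863 CPM in WT cold, and to 768 to 875 CPM in KO RT and 661 to 719 CPM in WT RT. Of these 10 markers 6 were higher and 2 lower in KO at each temperature. The lists share genes: Tagln and Acta2 are targets and smooth muscle markers, and Col1a1, Col1a2 and Col3a1 are targets and fibroblast markers. The rises of targets and markers are thus in part the same values, and the part of these cell types in them was not tested.

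**Figure D5:**
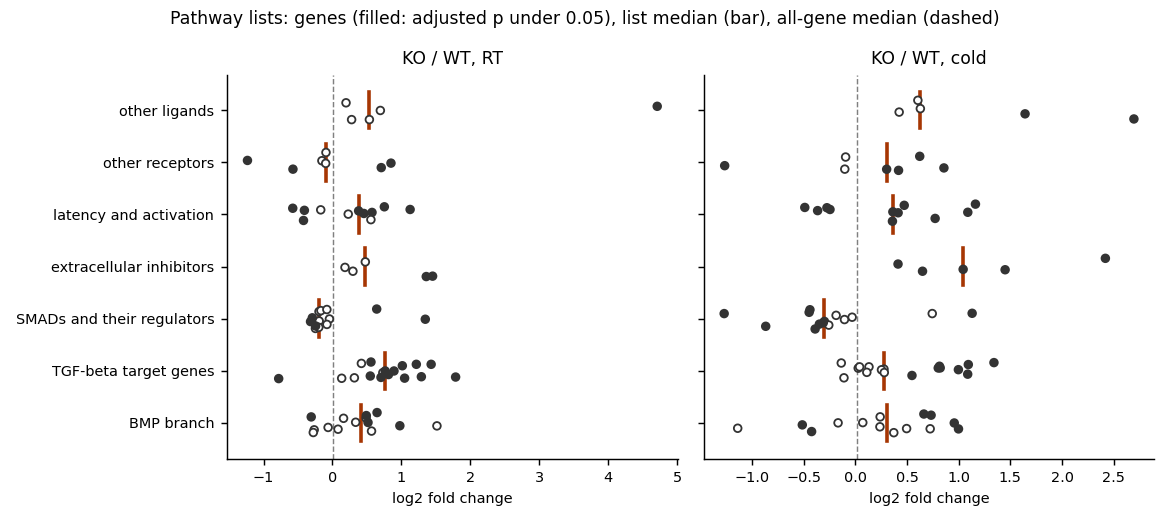
Log2 fold change of KO over WT (horizontal axes) of each tested gene of the pathway lists at RT (left) and in the cold (right), filled where the adjusted p was under 0.05, with the median of each list (bar) and of all genes (dashed line). The median of the TGF-beta target genes is 0.77 at RT and 0.28 in the cold, and that of the SMADs and their regulators -0.19 and -0.31.

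Of the 14 intracellular Smads and their regulators, 8 fell and 1 rose in KO in the cold, against 27.8% and 25.9% of all genes. At RT 3 fell and 2 rose, against 21.0% and 19.3%. The balance of this list turned with library totals alone, where 2 fell and 4 rose in the cold and both genes that passed at RT rose. The median log2 fold change in the cold was then 0.13, against 0.449 over all genes. Smad3, a transducer of TGF-beta and activin signals, had 14.0, 12.5 and 13.4 CPM in the KO cold pools, against 26.3, 24.5 and 22.1 CPM in the WT cold pools, and 22.1, 24.6 and 28.4 CPM in the KO RT pools, against 37.6, 28.5 and 23.0 CPM in the WT RT pools. The KO cold pools were the lowest, and the other groups overlapped. Smad3 fell in KO in the cold by 0.87 ± 0.15 (adjusted p = 0.00021) and at RT had a log2 fold change of -0.25 (adjusted p = 0.19).

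Tgif1, a corepressor of Smad-driven transcription, rose in KO by 1.13 ± 0.20 in the cold (adjusted p = 0.00019) and by 0.64 ± 0.20 at RT (adjusted p = 0.016). The call at RT was lost without WT RT replicate 2 (0.46), without KO RT replicate 5 (0.58) and without the libraries rich in skeletal muscle transcripts (0.47). Zfyve9, the anchor that brings Smads to the receptors, fell in KO by 0.44 ± 0.08 in the cold (adjusted p = 0.00024) and by 0.29 ± 0.08 at RT (adjusted p = 0.0078; 0.059 without the libraries rich in skeletal muscle transcripts). Ppm1a, a phosphatase that acts on Smads, fell in KO by 0.31 ± 0.08 in the cold (adjusted p = 0.004). With library totals alone the falls of Zfyve9 and Ppm1a were gone, at 0.00 and 0.13 in the cold, under a scaling that moved the median of all genes to 0.449 for this comparison.

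Of the other ligands only 5 of 11 passed the filter on low counts. Of these 2 rose in KO in the cold and 1 at RT, against 25.9% and 19.3% of all genes. Gdf15, a distant family member known as a stress-induced cytokine, had 3.99, 2.52 and 4.04 CPM in the KO cold pools, against 0.5997, 0.408 and 0.596 CPM in the WT cold pools. In the RT pools it stood at 2.38, 3.15 and 1.14 CPM in KO, against 0.0383, 0.0569 and 0.136 CPM in WT. It rose in KO by 2.70 ± 0.36 in the cold (adjusted p = 1.4e-05) and by 4.71 ± 0.47 at RT (adjusted p = 2e-06), where WT RT held as few as 1 count in a library, so that the fitted size depends on the prior count. Inhba, the other common activin chain, averaged 0.743 ± 0.150 CPM in KO and 0.555 ± 0.152 CPM in WT in the cold, and no comparison passed. Gdf11 did not pass in any comparison either, and Lefty1, an inhibitory ligand, passed in the cold at 1.64 ± 0.67 (adjusted p = 0.048) from at most 15 counts in any pool, a call that several left-out libraries ended.

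In the BMP branch, which signals through related receptors and other Smads, 4 of 14 genes rose and 2 fell in KO in the cold, and 4 rose and 1 fell at RT. Among all genes 25.9% rose and 27.8% fell in the cold, and 19.3% rose and 21.0% fell at RT. Scaled by totals alone, the BMP genes that passed all rose in KO, 8 in the cold and 5 at RT. Of all 15208 genes, 7881 and 4739 then rose. Bmp6 rose in KO by 0.998 ± 0.11 in the cold and by 0.65 ± 0.11 at RT (adjusted p = 1.8e-06 and 0.00021), and overlaps Txndc5 on the opposite strand. The target genes Id3 and Id4 rose as well, Id3 by 0.73 ± 0.12 and Id4 by 0.96 ± 0.21 in the cold (adjusted p = 8.4e-05 and 0.00094). Bmp8b, a ligand that brown adipocytes make in the cold, averaged 2.92 ± 1.53 CPM in KO and 6.46 ± 0.221 CPM in WT in the cold, and 0.992 ± 0.967 CPM in KO and 0.343 ± 0.136 CPM in WT at RT. It rose with cold in WT by 4.18 ± 0.71 (adjusted p = 0.0011), and in KO the log2 change was 1.53 ± 0.62 (adjusted p = 0.14), with a difference of -2.65 that did not pass (adjusted p = 0.075). For KO over WT the log2 fold change of Bmp8b was -1.14 ± 0.56 in the cold (adjusted p = 0.12) and 1.52 ± 0.77 at RT (adjusted p = 0.15). These comparisons passed in 5 of 16 alternatives in the cold and in 2 of 15 at RT. The cold response in KO passed in 3 of 15, and the difference of the cold responses in 4 of 20. Bmp8b overlaps Ppie on the opposite strand.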

How the data were processed

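RNA-seq of brown fat was deposited as 12 files of counts per Ensembl gene, 1 per pool. Per the submitters' processing notes the authors used STAR and HTSeq on GRCm38, and their versions are not stated in the sources at hand. The deposited counts were raw, and the file names refer to a reverse strand setting. Summary lines were left out: reads outside genes (1.64 to 2.26%), ambiguous (1.07 to 1.37%), unaligned (1.12 to 1.86%) and with several alignments (26.6 to 30.2%). Names and positions came from a GRCm38 annotation that held 53274 of the 53379 IDs.

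The counts were tested with edgeR 4.0.16 under R 4.3.3: filterByExpr left 15208 genes and took out 38171, TMM factors ran from 0.798 to 1.18, and a mean for each group was estimated from all 12 libraries together, with a biological coefficient of variation of 13.6%. Every adjusted p without another tool's name is from the quasi-likelihood test of edgeR, adjusted by Benjamini-Hochberg for 15208 genes, and 0.05 was the threshold. SE is the log2 change over the root of the F statistic, and fold changes used a prior count of 0.125. The fit was tested on simulated data. RPKM divides CPM by the summed exon length of the gene. With no record of how mice were assigned to pools, p-values measure the spread between these pools.

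Named were the 9 members, Cdk7 and, from each pathway list, up to 4 genes with the smallest p over KO against WT at both temperatures and cold in WT. Per member the 3 genes with the highest correlation over the 12 libraries were taken, of which some are not reported here. The members and lists were chosen with earlier results of these data known. The alternatives were median-ratio size factors, library totals alone, a minimum of 1 count in place of the filter, a stricter filter (6 libraries with a CPM of at least 1), DESeq2 1.42.0, limma 3.58.1 voom with sample weights, the compared libraries alone, the replicate number as a block, mitochondrial transcripts left out, each library left out, and both libraries rich in skeletal muscle transcripts left out.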

Additional observations from a re-analysis of the deposited data

Results flagged for a closer look

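The cold response differed between the genotypes for 11 of the 38 genes named with their tests, by the interaction term in edgeR with adjustment over all genes, of which 23.5% passed this test. The genes other than the members and Cdk7 were named for their small p in these data. Among the members this was Tgfbr2, with a log2 difference (KO minus WT) of 1.33 ± 0.19 (adjusted p = 0.00028). It was positive for Fst (1.06, adjusted p = 0.0015), Acvr1b (0.99, adjusted p = 0.0018), Lox (0.89, adjusted p = 0.0018), Ltbp2 (0.78, adjusted p = 0.0068), Htra1 (0.47, adjusted p = 0.012) and Bambi (0.97, adjusted p = 0.041). It was negative for Lrrc32 (-1.12, adjusted p = 0.00027), Eng (-0.55, adjusted p = 0.014), Smad3 (-0.62, adjusted p = 0.042) and Gdf15 (-2.02, adjusted p = 0.033). Of 20 alternatives, the difference passed in 6 for Bambi, 9 for Smad3 and 11 for Gdf15, with adjusted p of up to 0.094 for Bambi, 0.18 for Smad3 and 0.17 for Gdf15. That of Eng passed in 18, and was lost with library totals alone (-0.34, adjusted p = 0.12) and without the libraries rich in skeletal muscle transcripts (-0.48, adjusted p = 0.058). With library totals alone the median difference over all genes was 0.235.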

How the results depend on the processing

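The rises of Tgfb1 and Tgfb3 in KO at both temperatures, of Smad7 in KO at RT and with cold in both genotypes, and the 3 results on Tgfbr2 that involve WT cold held in all alternatives. The fall of Inhbb with cold in WT held in the 14 alternatives that tested it, where Tgfbr2 had 16 for this comparison. Library totals alone moved the median of all genes to 0.218 (RT) and 0.449 (cold) in KO over WT, to -0.227 with cold in WT and to 0.235 for the difference of the cold responses. Under that scaling 7 members passed in the cold, all higher in KO, and for KO over WT in the cold the sign turned for Tgfbr1 (0.36), Tgfbr3 (0.31), Lrrc32 (0.07), Itgav (0.17) and Ppm1a (0.13), and Zfyve9 came to 0.00. With it, 5 members rose in KO at RT, and 36 pathway genes rose and 2 fell at RT, and 45 rose and 3 fell in the cold. With cold in WT it gave 8 higher and 18 lower.

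Without the libraries rich in skeletal muscle transcripts, 3 members and 22 pathway genes (5 and 38 otherwise) passed for KO over WT at RT, 19 pathway genes (29 otherwise) for cold in WT and 7 (11 otherwise) for cold in KO. Over all genes the numbers that passed dropped as well. They were 3566 for KO over WT at RT (6138 otherwise), 5734 for cold in WT (7034 otherwise) and 1214 for cold in KO (2258 otherwise). With no filter beyond 1 count, 5 members (2 otherwise) and 18 pathway genes passed for cold in KO and 19 (10 otherwise) for the difference of the cold responses. Of all genes, 2724 passed for cold in KO (2258 otherwise) and 3719 for the difference (3581 otherwise). Limma voom called 22 pathway genes for cold in KO and 2 members (1 otherwise) for the difference. Over all genes limma voom called 4155 for cold in KO (2258 otherwise) and 5253 for the difference (3581 otherwise). With each library left out, members called for cold in KO ranged from 1 to 3, pathway genes from 6 to 12, and members for the difference from 1 to 2. All genes called then ranged from 1171 to 2538 for cold in KO and from 2579 to 4014 for the difference. The causes were not tested.

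Deviations from the group means correlated at -0.306 to 0.229 between same-numbered libraries of WT RT, WT cold and KO cold. KO RT, numbered from 4, was left out, and libraries of unlike number were not compared. Whether the numbers pair the samples can therefore not be told from these values. With the replicate number as a block, 7691 genes were called for KO over WT in the cold and 6671 for cold in WT, and Thbs1 passed in both (0.65, adjusted p = 0.036, and 0.84, adjusted p = 0.018). Counts of 3 to 40 for Inhbb and 18 to 78 for Tgfb2 limit what can be detected.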
